A study of Homo sapiens with 12 samples.

Results

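The small (40S) subunit of the cytosolic ribosome reads the messenger RNA. It is built from 18S ribosomal RNA and a set of proteins, each normally encoded by 1 gene, and it divides into a head and a body with a platform. Most of these mRNAs begin with a cytosine followed by an unbroken run of pyrimidines, the 5′ terminal oligopyrimidine (TOP) tract, through which growth signals are known to switch their translation on and off together. YBX1, the protein depleted here, is a cold-shock domain protein that binds and packages mRNA.

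The mRNAs described are 28 genes of the small subunit, chosen by symbol and not by any measured value: RPSA, RPS2, RPS3, RPS3A, RPS4X, RPS6, RPS7, RPS9, RPS10, RPS12, RPS13, RPS14, RPS15, RPS15A, RPS16, RPS18, RPS19, RPS20, RPS21, RPS23, RPS24, RPS25, RPS26, RPS27, RPS27A, RPS28, RPS29 and FAU. All 28 were found among the 19755 protein-coding genes of the deposited table, and all 28 passed the filter on low values that left 10982 genes for testing. RNA came from MOLM13, an established human cell line derived from acute myeloid leukaemia, in which every group stably expressed Cas9. On day 7 after lentiviral transduction 3 groups were compared: control cells, whose vector the labels call both empty and non-targeting, and cells with sgRNA1 or with sgRNA2, which are different guide RNAs against YBX1. All groups had been selected in blasticidin at 5 µg/ml and puromycin at 1 µg/ml and sorted for strong red fluorescence, and each was represented by 4 libraries numbered 1 to 4. The labels do not state what a number stands for or whether the libraries came from separate cultures, so p-values measure the spread between these libraries, which may be technical. In such bulk samples fewer cells of a kind and less RNA per cell cannot be told apart, and an sgRNA pool can hold cells with and without an edited allele. Values are rlog values, a regularised log2 of normalised read counts, so a difference of 1 is a doubling. They carry no depth, and counting error could not be given.

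YBX1 itself had a mean rlog of 12.86 ± 0.088 (SD, n = 4) in control, 11.18 ± 0.14 (SD, n = 4) with sgRNA1 and 11.93 ± 0.10 (SD, n = 4) with sgRNA2. Both guides together were lower by a difference of -1.30, and the exact two-sided permutation test gave p = 0.00202 over 495 arrangements, the smallest it can give. Of 10 markers of the myeloid leukaemia cell, 9 had a mean level of 8.94 to 12.32, and CD68 was the exception, with a mean of -1.03. T cell and erythroid markers lay at 0.21 or lower. Of the epithelial markers, KRT18 reached a mean of 7.67 and EPCAM was at -1.97.

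The sequence at the start of the transcript is shown for the named genes, because the TOP tract is the feature these mRNAs are known to share. The RefSeq promoter table (GRCh38.p14) held 28 starts for 25 of the 28 genes; RPS2, RPS15A and RPS20 were not in it. Each line gives 10 bases before and 20 bases from the annotated start, on the strand of the gene and read 5′ to 3′, with the unbroken run of C and T from the start onwards in capitals.
RPS16 (chr19:39435930-39435959, minus strand): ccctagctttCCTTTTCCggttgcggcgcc
RPS3 (chr11:75399508-75399537, plus strand): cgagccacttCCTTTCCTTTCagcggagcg
RPS7 (chr2:3575250-3575279, plus strand): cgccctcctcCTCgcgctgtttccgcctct
RPS24 (chr10:78033853-78033882, plus strand): aatcgtggttCTCTTTTCCTCCTTggctgt
RPS29 (chr14:49598691-49598720, minus strand): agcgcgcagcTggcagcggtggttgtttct
RPS10 (chr6:34426050-34426079, minus strand): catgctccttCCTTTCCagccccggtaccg
A start with C followed by at least 4 more bases that are each C or T was present at 19 of the 28 starts (67.9%) and so for 19 of the 25 genes. The same start occurred at 1429 of all 35116 promoters in the table (4.07%). The longest run was that of RPS24, with 14 bases. RPS7 had a run of 3 bases at its annotated start, although 9 of the 10 bases before that start were also C or T, and RPS29 began with a T. The match is a description of these windows only, since the starts used in MOLM13 cells were not measured.

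The listed levels of the small-subunit mRNAs differed widely. Mean levels over the 12 libraries ran from 4.73 for RPS10 to 15.39 for RPS18, and 22 genes lay above RPS23, whose mean was 12.001. Per kilobase of coding sequence (rlog minus the log2 of the coding length in kilobases), the highest levels were those of RPS18 at 16.52, RPS12 at 16.12, RPS20 at 16.08 and RPS24 at 16.02, and the lowest was that of RPS10 at 5.75. RPS18 and RPS12 sit in the head, and RPS24, a body protein, is 1 of the genes mutated in Diamond-Blackfan anaemia, an inherited failure of red cell production. Proteins present in 1 copy per ribosome thus had listed mRNA levels far apart.

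Of the 6 lowest levels, 5 belonged to genes that share over 50% of their short coding stretches with other genes, as did 19 of all 28, and the other was that of FAU (11.61). Short paired reads of 37 bases were used. For each gene, the share of its 37-base coding stretches that also occur in transcripts of another gene, on either strand, was computed from GENCODE 29. The second read of a pair and the untranslated parts of the gene were not considered. The share may therefore overstate how often a read pair is ambiguous. The median share was 70.1% for the 28 genes and 0 for the 10974 tested genes with a principal transcript. A share over 50% was found for 19 of the 28 genes and for 8.02% of those tested, and most of the sharing genes were annotated as pseudogenes. RPS10 was shared in full and 92.1% of its coding bases lay inside exons of the readthrough gene RPS10-NUDT3, itself listed at 0.00 in every library. RPS26, a protein of the mRNA exit, and RPS3A, of the platform, were also shared in full, with mean levels of 10.30 and 11.39. RPS15A was shared to 85.9%, and 54.6% of its coding bases overlapped another annotated gene on its strand. RPS23, a protein of the decoding centre, overlapped ATG10 on the opposite strand over 54.1% of its coding bases, and the library kit did not mark strand. FAU, made as a fusion with a ubiquitin-like protein, was shared to 33.1% only, and 8.52% of its coding bases overlapped another gene. RPS27 and RPS28 were likewise shared in full and yet had mean levels of 13.62 and 12.89. Reads of such genes could be split or dropped by the counting, so their levels are uncertain and their part in the order of levels was not tested.

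**Figure D1:**
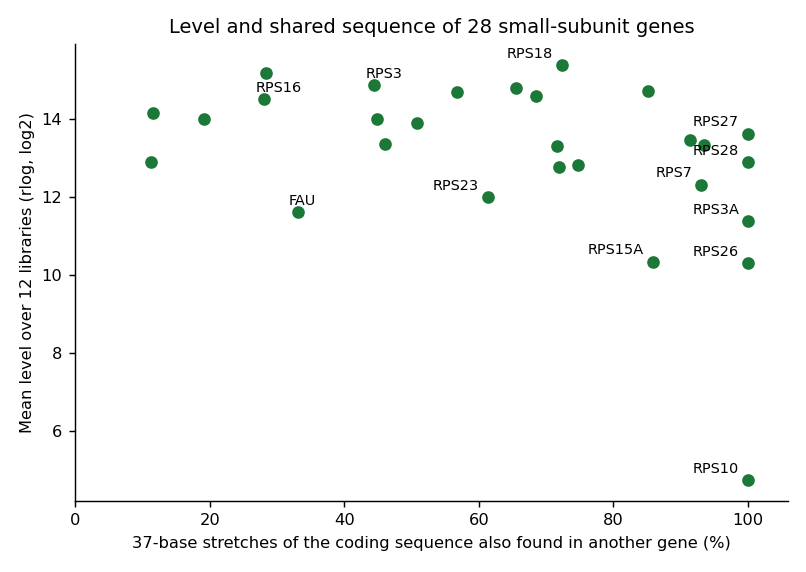
Mean rlog level over 12 libraries (y axis, log2) against the share of 37-base coding stretches found in another gene (x axis, percent) for the 28 small-subunit genes, 1 point per gene, with the 6 lowest and some others named. RPS10, at 4.73, stands far below the rest at a share of 100%, whereas RPS27, at 13.62, has the same share.

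RPS16, a head protein whose tail reaches the transfer RNA in the peptidyl site, had the lowest difference and the widest range of all 28 genes. Its gene lies on chromosome 19 (GRCh38, 39433207 to 39435948, minus strand), with the coding sequence in 5 exons. Control libraries 1 to 4 had levels of 14.54, 14.66, 14.64 and 14.81, the sgRNA1 libraries 14.20, 14.49, 14.36 and 14.40, and the sgRNA2 libraries 14.26, 14.55, 14.63 and 14.55. All sgRNA1 libraries were below all control libraries, sgRNA2 libraries 2, 3 and 4 overlapped the lowest control, and every guide library was below the control library of its own number. The difference of both guides from control was -0.23 (SE 0.082, limma adjusted p = 0.473), or 0.851-fold, and did not pass the test. With the replicate number as a block the SE was 0.052 and the adjusted p 0.0142, so that RPS16 fell in that fit. That call was lost when control library 1 (adjusted p = 0.0932) or control library 4 (adjusted p = 0.0664) was left out, and it was kept in the other 10 of 12 fits that left out 1 library. With the block, a number without its control library no longer bears on the difference of both guides from control. The blocked difference of RPS16 was -0.21 both without control library 1 and without all libraries numbered 1. It was -0.20 both without control library 4 and without all libraries numbered 4.

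RPS3, which lines the entry of the mRNA channel in the head, had the next lowest difference. It lies on chromosome 11 (GRCh38, 75399486 to 75422280, plus strand). Its levels were 14.93, 15.01, 14.97 and 15.15 in control libraries 1 to 4, 14.57, 14.84, 14.74 and 14.80 with sgRNA1, and 14.62, 14.84, 15.06 and 14.95 with sgRNA2. The sgRNA1 libraries again lay below all controls, whereas sgRNA2 libraries 3 and 4 lay among them. The difference was -0.21 (SE 0.085, limma adjusted p = 0.588), and with the block the SE was 0.056 and the adjusted p 0.0335. RPS3 passed in only 2 of the 12 blocked fits that left out 1 library (without control library 3 and without sgRNA2 library 3), with the adjusted p between 0.000108 and 0.199, and after quantile scaling its blocked difference was -0.066 (SE 0.042, adjusted p = 0.426).

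RPS7, a body protein known to bind the p53 regulator MDM2, was the last of the 3 genes that passed with the block. It lies on chromosome 2 (GRCh38, 3575205 to 3580920, plus strand), and 93.0% of its 37-base stretches are shared with pseudogenes. Its levels were 12.37, 12.38, 12.40 and 12.53 in control libraries 1 to 4, 12.11, 12.23, 12.22 and 12.29 with sgRNA1, and 12.18, 12.26, 12.46 and 12.35 with sgRNA2. Only sgRNA2 library 3 reached into the control range. The difference was -0.16 (SE 0.060, limma adjusted p = 0.535), and with the block the SE was 0.042 and the adjusted p 0.0314. RPS7 passed in the same 2 of the 12 blocked fits that left out 1 library, with the adjusted p between 0.000215 and 0.173, and its blocked adjusted p was 0.112 after quantile scaling.

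At the other end of the order stood RPS29, RPS24 and RPS15A, whose differences were all close to 0. RPS29, a zinc-binding head protein (chromosome 14, 49570984 to 49599164, minus strand), had levels of 12.68, 12.70, 12.73 and 12.89 in control libraries 1 to 4, 12.58, 12.68, 12.81 and 12.91 with sgRNA1, and 12.57, 12.71, 12.98 and 12.92 with sgRNA2. Libraries 3 and 4 of both guides were high and libraries 1 low, so that the groups overlapped throughout and the difference was 0.017 (SE 0.079). RPS24 (chromosome 10, 78033732 to 78056813, plus strand) had levels of 14.65, 14.71, 14.65 and 14.74 in control, 14.52, 14.65, 14.70 and 14.79 with sgRNA1, and 14.58, 14.68, 14.86 and 14.80 with sgRNA2, a difference of 0.012 (SE 0.066). RPS15A, a body protein (chromosome 16, 18781295 to 18790383, minus strand), had the narrowest range, 0.21, with levels of 10.30, 10.38, 10.36 and 10.30 in control, 10.28, 10.39, 10.45 and 10.30 with sgRNA1, and 10.24, 10.38, 10.41 and 10.30 with sgRNA2. Its difference was 0.011 (SE 0.045), and these 3 differences turned negative in some of the fits that left out libraries. RPS10, which is ubiquitinated when ribosomes collide, was the other gene of narrow range (0.21), with levels of 4.75, 4.79, 4.84 and 4.65 in control, 4.71, 4.79, 4.78 and 4.64 with sgRNA1, and 4.85, 4.64, 4.69 and 4.66 with sgRNA2, and a difference of -0.039 (SE 0.049). It lies on chromosome 6 (34417454 to 34426125, minus strand), and at so low a level the rlog is drawn towards the mean of the gene.

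Of the 28 genes none passed the test for both guides against control without the block, where 0.100% of all genes tested did, and 3 had an unadjusted p under 0.05, as had 7.48% of all genes tested. With the block RPS16, RPS3 and RPS7 fell and none rose, against 2.87% of all genes tested that fell. After quantile scaling, where 2.16% of all genes fell with the block, 2 genes did so, RPS16 (-0.18, SE 0.031, limma adjusted p = 0.00397) and RPS6 (-0.14, SE 0.034, adjusted p = 0.0260). The difference was below 0 for 24 of the 28 genes, with a median of -0.043 beside -0.0059 for all genes tested, but after quantile scaling it was below 0 for 14 of them, with a median of -0.0022. The downward lean of the group as a whole was therefore not seen after quantile scaling. That scaling gives every library the same set of values, so it can itself remove a shift shared by many abundant mRNAs. It cannot decide the direction of the group. Differences ran from -0.23 to 0.017 and their SEs without the block from 0.045 to 0.091.

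**Figure D2:**
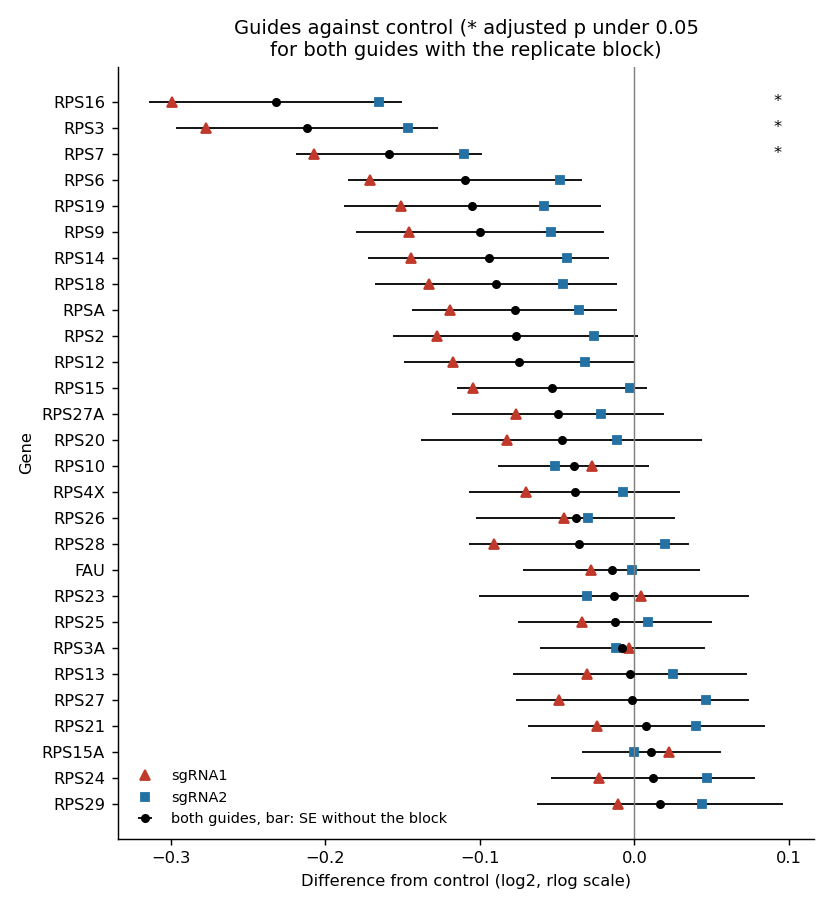
Difference from control on the rlog (log2) scale for each of the 28 genes: black points, both guides together with the SE of the fit without the block; red triangles, sgRNA1; blue squares, sgRNA2. RPS16, RPS3 and RPS7, marked with an asterisk, have an adjusted p under 0.05 with the block, and for most genes the sgRNA1 value lies to the left of the sgRNA2 value.

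sgRNA2 library 3 stood apart from the other guide libraries. It was above control library 3 for 25 of the 28 genes, with a median of 0.12 over the genes, whereas in the other 7 guide libraries the median against the control of the same number lay between -0.15 and -0.021. Without that library and with the block, 8 of the 28 genes fell (RPS16, RPS3, RPS7, RPS6, RPS9, RPS19, RPS14 and RPS18), against 5.04% of all genes tested. RPS6, the substrate of the S6 kinases, then had a difference of -0.14 (SE 0.035, limma adjusted p = 0.0122). RPS19, the gene most often mutated in Diamond-Blackfan anaemia, had -0.13 (SE 0.033, adjusted p = 0.0135), and RPS14, whose loss from 1 chromosome 5 marks a form of myelodysplastic syndrome, had -0.13 (SE 0.031, adjusted p = 0.0113). These fits were added after the levels had been seen. The library left out was picked because these same genes were high in it, which by itself favours a fall. The added calls are therefore no independent support.

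The guides were compared on their own and with each other. With sgRNA1 no gene of the 28 passed without the block (0.0455% of all genes tested did), and 26 differences were below 0, with a median of -0.080. After quantile scaling 17 of the sgRNA1 differences were below 0. With the block RPS16 (-0.30, SE 0.050, limma adjusted p = 0.00132), RPS3 (-0.28, SE 0.056, adjusted p = 0.00676) and RPS7 (-0.21, SE 0.043, adjusted p = 0.00952) fell, against 1.83% of all genes. Leaving out 1 library moved this count to 9 (without sgRNA2 library 3, with 3.53% of all genes), 7 (without control library 3, with 1.42%) or 1 (without sgRNA1 library 3, with 0.719%).

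With sgRNA2 none of the 28 passed, either without the block, where 0.0364% of all genes did, or with it, where 1.78% of all genes fell. An unadjusted p under 0.05 was found for 3 of them with the block and 0 without, below the 19.1% and 5.35% of all genes. Without sgRNA2 library 3 the same 3 genes as with sgRNA1 fell with the block, RPS16 (-0.21, SE 0.043, limma adjusted p = 0.00744), RPS3 (-0.22, SE 0.043, adjusted p = 0.00568) and RPS7 (-0.16, SE 0.037, adjusted p = 0.0153), against 1.25% of all genes. That library was singled out because the small-subunit genes were high in it, which favours a fall once it is gone. Both guides were also compared with the same control libraries, so these calls are no independent support for those with sgRNA1. The sgRNA2 differences had a median of -0.024, which was 0.031 without sgRNA2 library 1, 0.0029 without control library 4 and -0.00091 after quantile scaling. With all libraries that of RPS16 was -0.17 (SE 0.050, blocked adjusted p = 0.0636). After quantile scaling RPS16 passed with the block for sgRNA2 as well (-0.15, SE 0.034, limma adjusted p = 0.0185; 1.21% of all genes fell), and RPS3 no longer passed for sgRNA1, where RPS16, RPS7 and RPS6 did (1.15% of all genes fell).

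The difference between the guides was tested itself, since sgRNA1 left less YBX1 mRNA than sgRNA2. The level with sgRNA2 was higher than with sgRNA1 for 24 of the 28 genes and lower for 4, or for 9 after quantile scaling. No gene of the 28 passed without or with the block, and among all genes tested 0.00911% did in each fit. RPS16 was 0.13 higher with sgRNA2 than with sgRNA1, with an SE of 0.091 without and 0.050 with the block (limma adjusted p = 1.00 and 0.693).

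Levels of these mRNAs differed between replicate numbers. In the F test of the replicate number 26 of the 28 genes passed, against 51.8% of all genes tested, and the exceptions were RPS10 (limma adjusted p = 0.167) and RPS15 (0.069). Without sgRNA2 library 1 the count was 16, against 42.8% of all genes. A single library set the lowest value for most genes: sgRNA1 library 1 was the lowest of the 12 for 21 genes, sgRNA2 library 1 for 4 and sgRNA1 library 4 for 3. The highest value was that of sgRNA2 library 3 for 11 genes and of control library 4 for 9. In sgRNA1 library 1 all 28 genes, and in sgRNA2 library 1 27 genes, were below control library 1. Without the 3 libraries numbered 1, the median difference of both guides from control was -0.014 and no gene of the 28 passed with the block. Without the libraries numbered 3 it was -0.080, all 28 differences were below 0, and 6 genes fell with the block, against 2.29% of all genes.

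**Figure D3:**
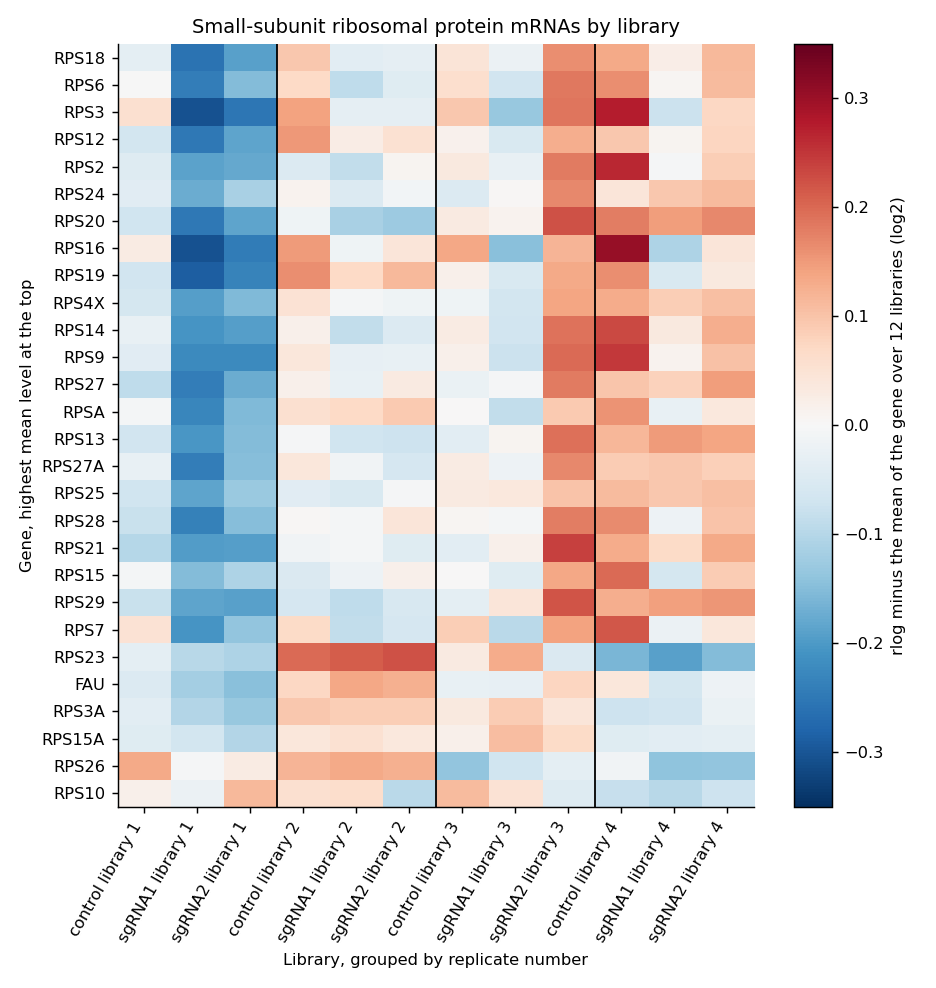
Deviation of the rlog level from the mean of each gene over 12 libraries (colour, log2) for the 28 genes (rows, highest mean level at the top) in each library (columns, grouped by replicate number). The first libraries of both guides are blue for most genes, sgRNA2 library 3 and control library 4 are red, and most of the 6 lowest rows are not red in the libraries numbered 4.

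The 6 genes with the lowest mean levels followed the others in some libraries and not in others. Mean levels in libraries numbered 3 and 4 exceeded those in libraries 1 and 2 for 24 of the 28 genes, by up to 0.25 for RPS20. The exceptions were RPS26 (-0.18), RPS23 (-0.13), RPS10 (-0.046) and FAU (-0.0068), and RPS3A and RPS15A exceeded 0 by only 0.0015 and 0.027. The median deviation of these 6 genes had the same sign as that of the other 22 in 6 of the 12 libraries and the opposite sign in the other 6. In sgRNA1 library 1 it was -0.080 for the 6 and -0.23 for the 22, and in sgRNA2 library 1 -0.10 and -0.18. In control library 4 the median deviation was 0.16 for the other 22 genes and -0.058 for these 6, and in sgRNA2 library 2 it was -0.020 and 0.10. In control, sgRNA1 and sgRNA2, RPS23 had levels of 11.97, 11.90 and 11.89 in the libraries numbered 1, 12.20, 12.21 and 12.22 in those numbered 2, 12.03, 12.13 and 11.95 in those numbered 3, and 11.84, 11.81 and 11.85 in those numbered 4. The split into 6 and 22 genes was made after the levels had been seen and is given without a test.

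The shift of whole libraries was shared with the large subunit. The median deviation of the 28 genes was -0.21 in sgRNA1 library 1, -0.15 in sgRNA2 library 1, 0.15 in sgRNA2 library 3 and 0.13 in control library 4. For 47 genes of the large subunit the corresponding medians were -0.20, -0.16, 0.15 and 0.13. For 83 other genes with a mean level of at least 13 they were 0.0057, 0.0011, -0.044 and -0.0058, and over all genes tested the median stayed between -0.0086 and 0.018. What sets the replicate numbers apart was not tested.

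**Figure D4:**
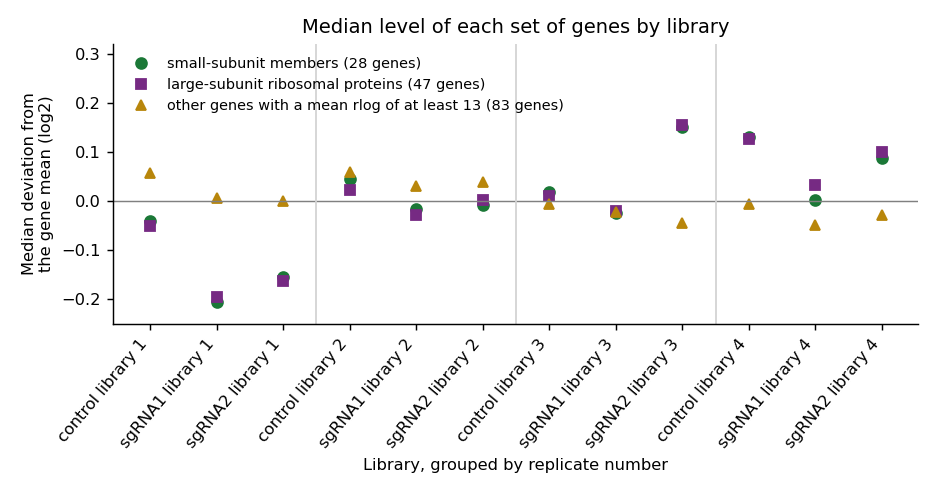
Median deviation from the gene mean (y axis, log2) in each of the 12 libraries (x axis, grouped by replicate number) for the 28 small-subunit genes (green circles), 47 large-subunit genes (purple squares) and 83 other genes with a mean level of at least 13 (gold triangles). Circles and squares almost coincide, from -0.21 in sgRNA1 library 1 to 0.15 in sgRNA2 library 3, while the triangles stay within 0.059 of 0.

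To set this shared shift aside, the level of each gene was expressed relative to the mean of the other 27 in the same library. RPS16, RPS3 and RPS7 were then below every control library in all 8 guide libraries. Relative RPS16 was 1.56 to 1.69 in the 4 control libraries and 1.36 to 1.53 in the 8 guide libraries, relative RPS3 1.95 to 2.04 and 1.76 to 1.93, and relative RPS7 -0.76 to -0.68 and -0.87 to -0.77. The groups did not overlap for any of these 3, including sgRNA2 library 3, and they overlapped for each of the other 25 genes. Taken against the mean of all 28, 0.219% of all genes tested had all guide libraries below all controls, but the subtraction adds the shift of the ribosomal genes to every gene that lacks it, so this share is no measure of chance. On the rlog scale itself the share was 0.792%, and 0 of the 28 genes were separated in this way. RPS29 and RPS24 moved the other way by 0.078 and 0.073 relative to the others, with overlapping groups. The measure was chosen after the levels had been seen, it uses the same libraries as the fits above, and no test is attached to it.

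**Figure D5:**
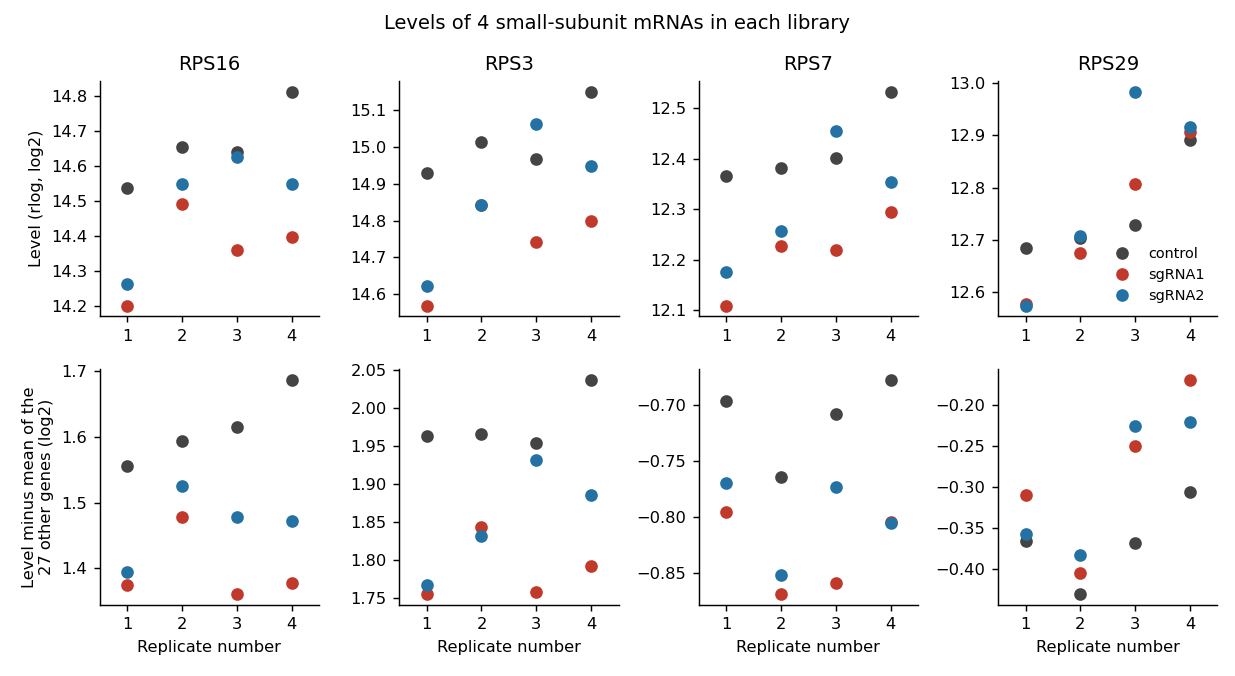
rlog level (top row) and level minus the mean of the 27 other small-subunit genes (bottom row, log2) of RPS16, RPS3, RPS7 and RPS29 in control (black), sgRNA1 (red) and sgRNA2 (blue) libraries, by replicate number (x axis); each point is 1 library. In the bottom row the black points of RPS16, RPS3 and RPS7 lie above all coloured points, whereas those of RPS29 do not separate.

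By position in the subunit, the median difference of both guides was -0.051 for the 12 head genes and -0.026 for the 16 genes of the body and platform, with 2 head genes (RPS16, RPS3) and 1 body gene (RPS7) that fell with the block. Over all genes tested 2.87% fell with the block, the share to set beside this count and those below. Of 9 small-subunit genes mutated in Diamond-Blackfan anaemia, 1 fell with the block (RPS7) and the median was -0.036. Of the 47 large-subunit genes none passed without the block and 8 fell with it, and their median of -0.037 lay close to that of the small subunit; RPL5 (-0.25, blocked SE 0.047, limma adjusted p = 0.00501) and RPL3 (-0.23, blocked SE 0.051, adjusted p = 0.0144) were examples. Of 46 tested factors of the small-subunit processome and 40S maturation, 2 fell with the block, the rRNA methylase fibrillarin (FBL, -0.18) and UTP4 (-0.13), and the median was -0.041.

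The initiation factors that bind the 40S subunit held the only list with calls that did not need the block. EIF3L (-0.68, SE 0.078, limma adjusted p = 0.00166) and EIF3D (-0.32, SE 0.051, adjusted p = 0.0305), both subunits of eIF3, fell without it, and EIF3F (-0.23) fell with it, out of 20 genes with a median of -0.045. Of all genes tested, 0.100% passed without the block and 2.87% fell with the block. This list was chosen with earlier results of these data known, so its calls are no independent support. Of 18 kinases, ubiquitin ligases and other regulators of 40S proteins or their mRNAs, 2 fell with the block, G3BP1 (-0.26) and RPS6KB2 (-0.17), the median being -0.024. None of the genes in these lists rose. The largest differences among the 28 ribosomal protein genes were thus smaller than that of EIF3L, and similar in size to those of RPL5 and RPL3.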

How the data were processed

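Libraries of polyadenylated RNA (NEBNext Ultra, 37-base paired reads, NextSeq) were processed by the authors on GRCh38. The submitters' processing notes name HTSeq 0.6.1pl, DESeq2, SAMtools, Picard 2.9.4, bcl2fastq 2.20.0.422 and the aligner STAR 2.7.5a. Parameters and annotation release are not given in the sources used here. The authors deposited rlog values on a log2 scale, normalised by size factors and shrunken at low counts, from reads whose duplicates had been removed, which lowers the most abundant transcripts most. Depth is therefore unknown. Deposited columns of the authors' own comparisons (fold changes and p-values) and scaled scores were not used.

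Genes with a mean rlog of at least 4 (10982 of 19755) entered two-sided moderated tests in limma 3.58.1 (R 4.3.3; lmFit, then eBayes with a mean trend). P-values were adjusted by Benjamini-Hochberg over these genes and called at 0.05. The model had 2 levels for both guides together and 3 for single guides. The fitting code was run on simulated data with known changes. These data were built with a replicate-number effect, so they cannot show whether the block suits the real libraries. They check the code and not the calls made here. The labels share replicate numbers 1 to 4 between groups. Deviations of same-numbered libraries from their group means correlated over all genes at 0.383 to 0.784 in 12 pairs (different numbers: -0.738 to 0.746), and in 19 of 24 cases the best match was the same number, so the number was used as a block on the evidence of the data alone. Positions, coding sequences and shared stretches came from GENCODE 29, which held 99.8% of the identifiers, and starts from RefSeq. Named in every library were genes past the threshold for both guides without or with the block, the 3 lowest and 3 highest differences, and the 2 widest and 2 narrowest ranges. Genes and lists were chosen with earlier results of these data known. Alternatives were quantile scaling, no filter, a mean rlog of at least 6, no trend, the block and leaving out each library. Python 3.11.15, pandas 2.3.3, numpy 2.4.6 and matplotlib 3.10.9 were used.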

Additional observations from a re-analysis of the deposited data

Results flagged for a closer look

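RPS28 had a level of 12.66 in sgRNA1 library 1, far below the other sgRNA1 libraries, which lay between 12.87 and 12.89. The gap to the nearest of these made up 0.95 of the range of the group, above Dixon's critical value for 4 samples. It was the only such case among 84 groups checked (28 genes in 3 groups), whereas chance alone flags about 1 in 20. The same library was the lowest of the 12 for 21 of the 28 genes. All coding 37-base stretches of RPS28 are shared with pseudogenes.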

How the results depend on the processing

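Because the labels give no meaning to the replicate numbers, blocking on the number rests on the data. Adding the block raised the count of genes past 0.05 for both guides from 11 to 593, of small-subunit genes from 0 to 3, and of small-subunit genes for sgRNA1 from 0 to 3, whereas the counts of small-subunit genes past 0.05 for sgRNA2 and between the guides stayed at 0. The count of 11 was 5 with no filter, 4 without number 1, 2 without number 3, 0 without number 4 (770 genes had an unadjusted limma p under 0.05), 1 with numbers 1 and 2 alone and 74 with numbers 3 and 4 alone. It ranged from 4 to 10 when 1 library was left out. With the block, the count of 3 small-subunit genes was 0 with no filter, where 16086 genes entered the adjustment, 0 without number 1, 1 without number 2, 6 without number 3, 0 without number 4 and 0 with numbers 3 and 4 alone. It ranged from 0 (without control library 1 or control library 4) to 8 (without sgRNA2 library 3) when 1 library was left out. Leaving out a control library gave the same blocked differences for both guides together as leaving out its whole number. Those fits are therefore not separate checks. For sgRNA1 the blocked count of 3 was 1 with no filter and ranged from 1 to 9 when 1 library was left out (7 without control library 3), and for sgRNA2 the blocked count of 0 was 1 after quantile scaling and ranged from 0 to 3, with 1 without control library 2 and 3 without sgRNA2 library 3. The F test of the replicate number called 16 to 27 of the 28 genes when 1 library was left out, the lowest count without sgRNA2 library 1.

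The differences of RPS15A, RPS24 and RPS29 changed sign. They ranged from -0.0041 to 0.026, -0.012 to 0.037 and -0.014 to 0.063 when 1 library was left out, were -0.0087, -0.029 and -0.033 without number 3, and -0.017, -0.073 and -0.060 with numbers 1 and 2 alone. RPS24 was at -0.0042 without number 4. The cause was not tested. The differences of RPS16, RPS3, RPS7 and RPS10 kept their sign in all fits. Settings that remove a replicate number or combine an alternative with the block were added after the data had been seen. No counts were used, so depth could not be weighed.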
